A study of Mus musculus with 24 samples.

Results

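The Foxp1 window is a stretch of 550 kb on mouse chromosome 6, from 98.85 to 99.40 Mb of build mm9. It was chosen from the peak positions themselves: 1 Foxa2 peak list holds a group of 6 neighbouring peaks there. All peaks of the 14 deposited lists that overlap the window by at least 1 bp are described here, 29 of the 26332 peaks in all lists. Because these positions chose the window, its counts and positions are given as a description, with no test. The name Foxp1 and the intronic placement come from the working definition of the window. Gene models of build mm9 were not used here, so neither was checked, nor whether the window spans the whole gene.

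The lists come from chromatin immunoprecipitation with sequencing (ChIP-seq), which recovers the DNA bound by a protein with an antibody and reports bound places as peaks. All cells were C57BL/6 mouse cells. Induced hepatocyte-like (iHep) cells were made from fibroblasts of embryonic day 13.5 by infection, in line 4a1 with Foxa1 and Hnf4alpha, in line 4a2 with Foxa2 and Hnf4alpha, and in line 4a3 with Foxa3 and Hnf4alpha, so all 3 lines carry Hnf4alpha. Each line was profiled with the antibody to its own Foxa protein in 3 libraries, 2 with the term EGS in the title and 1 without it (non-EGS). EGS is not spelled out in the labels. An antibody to the Flag epitope tag was used in 1 EGS library of line 4a2 and 1 of line 4a3. Which protein bears the tag is not stated in the labels. Hepatocytes of 10-week-old adult mice gave 1 EGS library for each of the antibodies to Foxa1, Foxa2 and Foxa3. In iHep cells the infected factor differs with the line and with the antibody used, so effects of line, factor and antibody cannot be told apart. Each of the 3 non-EGS lists is a single library, so differences between them have no replicate check. Read depth is unknown, since the lists hold no counts, and the lists differ in length from 21 to 11408 peaks.

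Foxa1, Foxa2 and Foxa3 are closely related forkhead transcription factors of the liver and other endodermal organs. They are known as pioneer factors, able to bind their sites in closed chromatin, and many of their sites lie far from promoters, within introns and between genes. Foxp1 belongs to another branch of the forkhead family. It acts mainly as a repressor of transcription and is known for its roles in the development of heart, lung, B cells and neurons.

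Of the 29 peaks, 15 belong to the Foxa2 non-EGS list of line 4a2, 6 to the Foxa3 non-EGS list of line 4a3 and 3 to the Foxa1 non-EGS list of line 4a1. The Foxa2 EGS lists of line 4a2 hold 2 peaks (replicate 1) and 1 peak (replicate 2), and the Flag list of line 4a3 holds 2. The other 8 lists hold none. The 3 non-EGS lists gave 24 of the 29 peaks. They hold 72.7% of the peaks of all lists, so most peaks anywhere come from them. Without the Foxa2 non-EGS library 14 peaks are left. Merging overlapping peaks of all lists gave 21 regions, of which 12 hold Foxa2 peaks only, 6 Foxa3 peaks only, 1 Foxa1 and Foxa2 peaks, and 2 Foxa1, Foxa2 and Flag peaks. No region holds peaks of both Foxa2 and Foxa3, nor of both Foxa1 and Foxa3. Over the whole Foxa3 non-EGS list, 14.8% of peaks overlap a Foxa2 non-EGS peak and 5.21% a Foxa1 non-EGS peak.

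**Figure D1:**
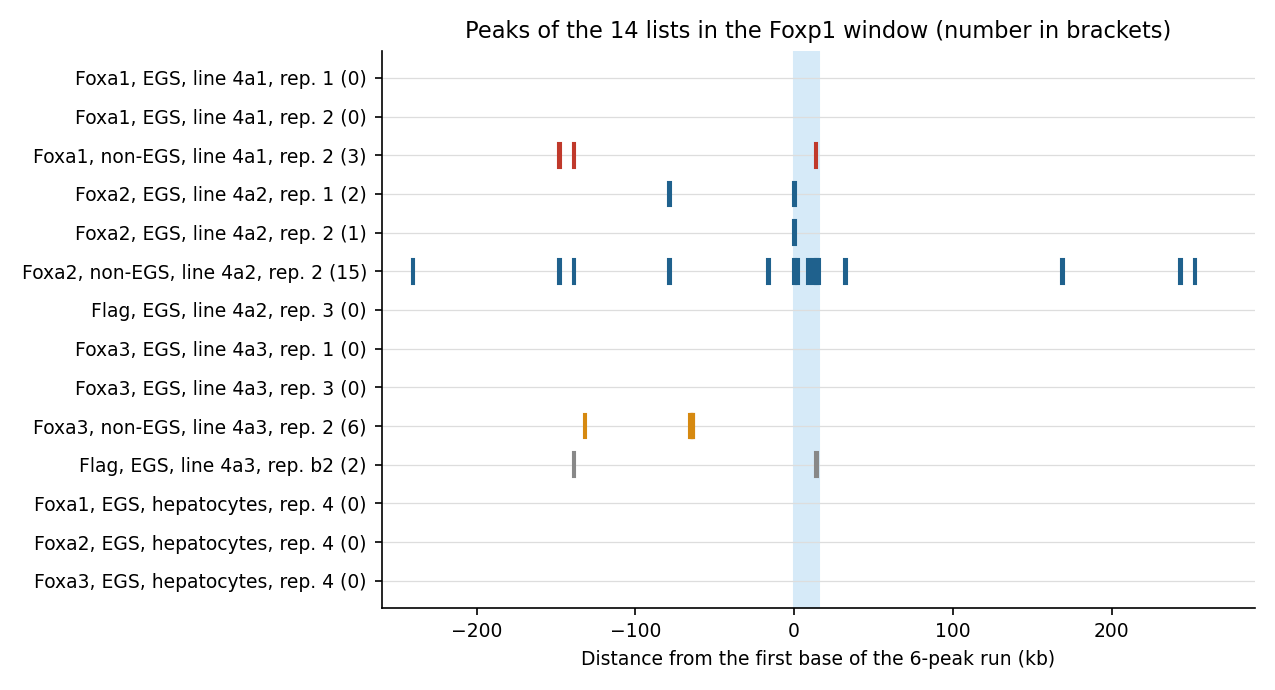
Positions of the 29 peaks in the 14 lists across the Foxp1 window, in kb from the first base of the 6-peak run, with the run shaded. Rows are libraries, coloured by antibody (red Foxa1, blue Foxa2, orange Foxa3, grey Flag), numbers in brackets count peaks, and peaks are drawn at least 1.5 kb wide to be visible. The Foxa2 non-EGS row holds 15 peaks and 8 rows are empty.

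Foxa2 peaks were dense in the window. The Foxa2 non-EGS list had 15 peaks there, 0.131% of its 11408 peaks (95% exact binomial interval 0.0736 to 0.217%, counting error only). Windows of the same length, tiled over the genome in step with this one, held 2.38 peaks of that list on average. The tiling takes in stretches without a peak in any list, such as the start of chromosome 1. Such stretches lower the window means and the shares of windows that hold a peak, here and below. Of the 4769 windows, 9 held 15 peaks or more, this one included, which is 0.189%, and the fullest held 18. The list itself pointed to the window, so this rank is no test. In the top-scoring 50% of the list, 98.6% of windows held fewer peaks than this one, against 99.8% with the whole list.

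**Figure D2:**
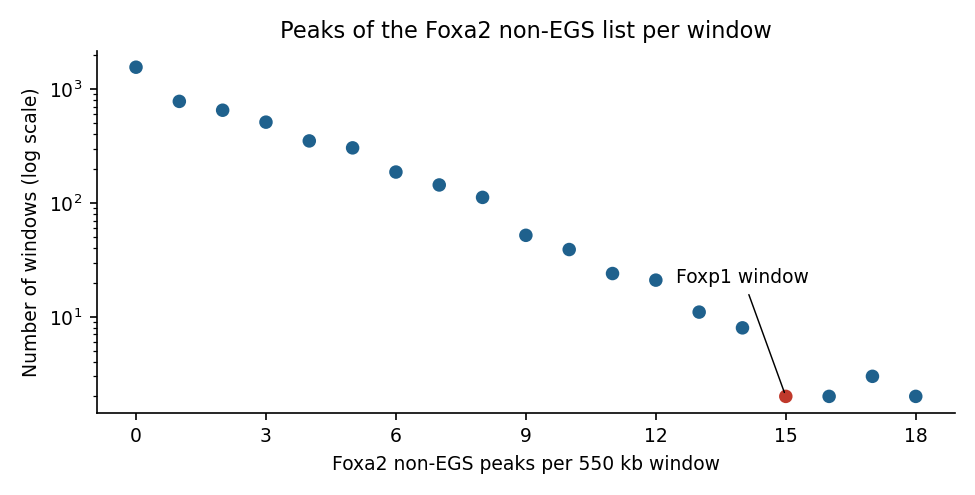
Number of 550 kb windows (log scale) by the number of Foxa2 non-EGS peaks they hold. The red point, at 15 peaks, stands for 2 windows, the Foxp1 window among them. Of the 4769 windows, 9 hold 15 or more.

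The run of 6 peaks lies at the middle of the window, from 99.109879 to 99.125472 Mb, and spans 15.6 kb. Its 6 peaks start at 99.109879, 99.111883, 99.118608, 99.121804, 99.123685 and 99.125141 Mb. They are 637, 418, 566, 467, 452 and 332 bp wide, in order of position. The gaps between them are 1367, 6307, 2630, 1414 and 1004 bp. The next Foxa2 non-EGS peak lies 15.9 kb before the run, and the one after it 16.4 kb behind. Spacing within the run is thus uneven: the first pair of peaks is separated from the others by the widest gap. The gaps within the run are shorter than those on either side by definition, since it joins neighbours within 10 kb.

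Peaks joined wherever neighbours lay within 10 kb gave 3 runs of at least 6 peaks in the whole list, which hold 19 peaks, 0.167% of the list. The Foxp1 run was the shortest of them. The others are a run of 7 peaks on chromosome 19 (55.926355 to 55.951606 Mb, 25.3 kb) and a run of 6 on chromosome 16 (93.715998 to 93.743521 Mb, 27.5 kb). Over all 11308 sets of 6 consecutive peaks of the list, the Foxp1 run had the shortest span. The median span was 745 kb, and the next shortest set, part of the run on chromosome 19, spans 17.5 kb. The number of runs follows the joining distance. With 5 kb the Foxp1 run breaks into smaller groups, the largest of 4 peaks, and 1 run of at least 6 is left elsewhere. With 20 kb it takes in both flanking peaks, 8 in all, and 24 runs reach 6 peaks.

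The run mixes high and low peaks of its list. Peaks were ranked within their own list by the score that the authors gave them, as a percentile with 100 at the top, since the scale of the score is not known. In order of position the 6 peaks lie at percentiles 83.7, 48.5, 89.1, 36.3, 24.9 and 6.37. The first and the third peak are high in the list, and the last is among its lowest. The mean percentile of the run is 48.2, against 53.1 for the run on chromosome 19 and 59.8 for that on chromosome 16. Over the 15 Foxa2 non-EGS peaks of the window the percentiles run from 4.35 to 89.3 with a median of 48.5. By width the median percentile is 47.8. The window is thus full of Foxa2 peaks whose median rank and width are near the middle of their list.

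**Figure D3:**
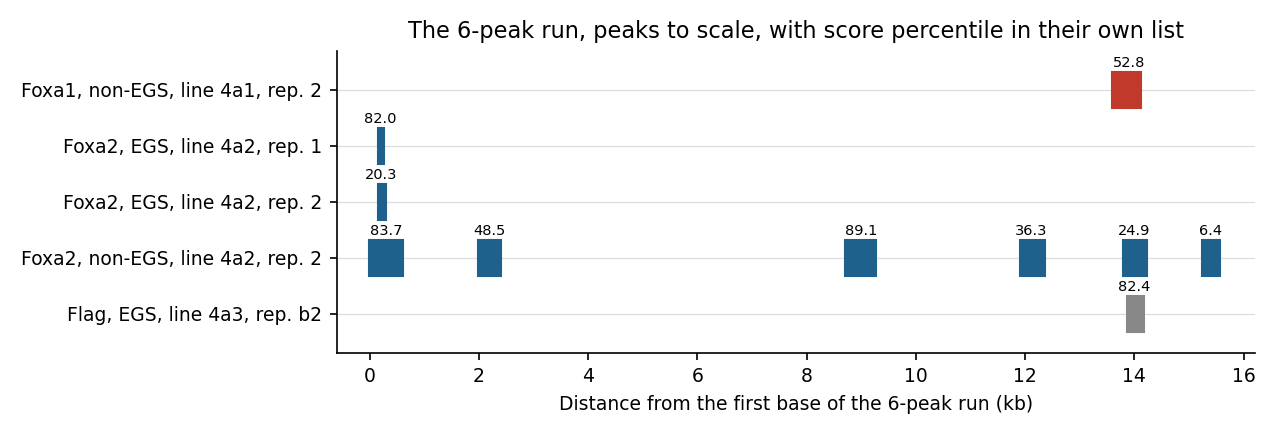
The 6-peak run to scale, in kb from its first base, with each peak's score percentile within its own list printed above it. Rows are the 5 libraries with a peak in the run (red Foxa1, blue Foxa2, grey Flag). The first Foxa2 non-EGS peak also holds both Foxa2 EGS peaks, and the fifth overlaps the Foxa1 and the Flag peak.

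Outside the run, 9 Foxa2 non-EGS peaks are spread over the window. The highest of them starts at 98.961768 Mb, is 541 bp wide and lies at percentile 89.3, rank 1221 of 11408. Those starting at 99.141889 Mb (552 bp, percentile 79.7) and 99.031154 Mb (465 bp, percentile 74.9) follow. Farther from the run, the peaks starting at 99.278631 Mb and 99.361934 Mb lie at percentiles 65.2 and 59.1. The other 4, starting at 98.869738, 98.971052, 99.093507 and 99.353092 Mb, lie between percentiles 4.35 and 13.2. High and low peaks thus occur inside as well as outside the run. The peak starting at 98.869738 Mb is the first within the window, and the nearest Foxa2 non-EGS peaks beyond its edges lie 33.5 kb before it and 67.9 kb after it.

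**Figure D4:**
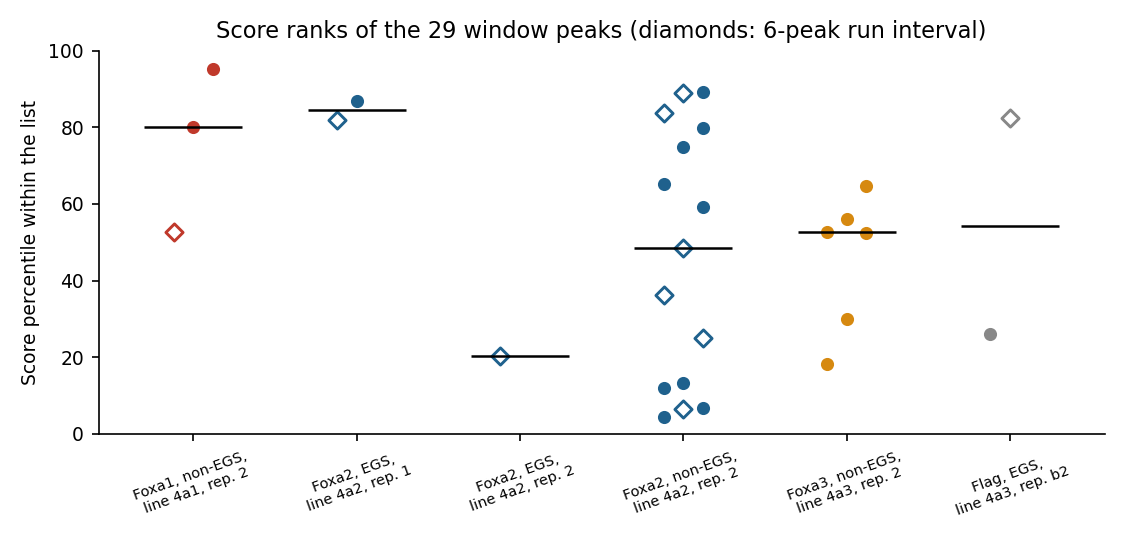
Score percentile, within its own list, of each of the 29 peaks of the window, for the 6 libraries that hold any. Diamonds mark peaks within the interval of the 6-peak run, circles the others, and black lines the median. The 15 Foxa2 non-EGS peaks run from 4.35 to 89.3.

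The Foxa1 peaks of the window lay on Foxa2 peaks, as most peaks of the whole Foxa1 non-EGS list do. The Foxa1 non-EGS list of line 4a1 has 3 peaks in the window, 482, 563 and 543 bp wide, at score percentiles 80.0, 95.2 and 52.8 of its 3431 peaks. All 3 overlap a Foxa2 non-EGS peak, where 71.6% of the whole Foxa1 list does. With 3 peaks this is not set apart from the list. Seen from the Foxa2 side, 3 of 15 peaks hold a Foxa1 peak, near the 21.5% over the whole Foxa2 non-EGS list. In the 6-peak run it is 1 of 6. Over the 3 runs of at least 6 peaks together it is 4 of 19, or 21.1%. The other run of 6 peaks holds 2 such peaks and the run of 7 holds 1. Sharing with Foxa1 in the window and in the run is thus near the background of the list. The Foxa1 list is shorter, and its 3 peaks are 4.19 times its mean of 0.717 per window, against 6.30 times for Foxa2. The window was chosen for its Foxa2 peaks, so the lower ratio for Foxa1 is no result. The 3 peaks are 0.0874% of the Foxa1 list (95% exact interval 0.0180 to 0.255%). A total of 7.40% of windows hold 3 or more Foxa1 non-EGS peaks.

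The Foxa1 and Foxa2 non-EGS lists hold 3431 and 11408 peaks, each from a single library, so percentile differences between them are no result. The shared places are given in order of position. The first, at 98.961768 to 98.962308 Mb, is high in both, at percentile 80.0 for Foxa1 and 89.3 for Foxa2, and the Foxa1 peak lies wholly within the Foxa2 peak. The second, at 98.970882 to 98.971444 Mb, is the highest of the window for Foxa1 (percentile 95.2, rank 166 of 3431) and among the lowest for Foxa2 (rank 10035 of 11408). There the Foxa2 peak, 346 bp, lies within the Foxa1 peak, 563 bp. The third, at 99.123484 to 99.124136 Mb, is the fifth peak of the run. It lies at percentile 52.8 for Foxa1 and 24.9 for Foxa2, and both peaks share 342 bp, 75.7% of the narrower one. The 2 highest Foxa2 peaks of the run, at percentiles 83.7 and 89.1, have no Foxa1 peak. In the highest quartile of that list by score 49.8% of peaks hold one, so these 2 are not set apart.

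Over the whole Foxa2 non-EGS list, sharing with Foxa1 rises with the Foxa2 score, from 6.94% in the lowest quartile (95% exact interval 6.04 to 7.94) to 49.8% in the highest (48.0 to 51.7). In the window, 2 of the 6 peaks of the lowest quartile hold a Foxa1 peak, 0 of the 2 and 0 of the 3 in the middle quartiles, and 1 of the 4 of the highest quartile. These counts are too small to set against the shares of the list.

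**Figure D5:**
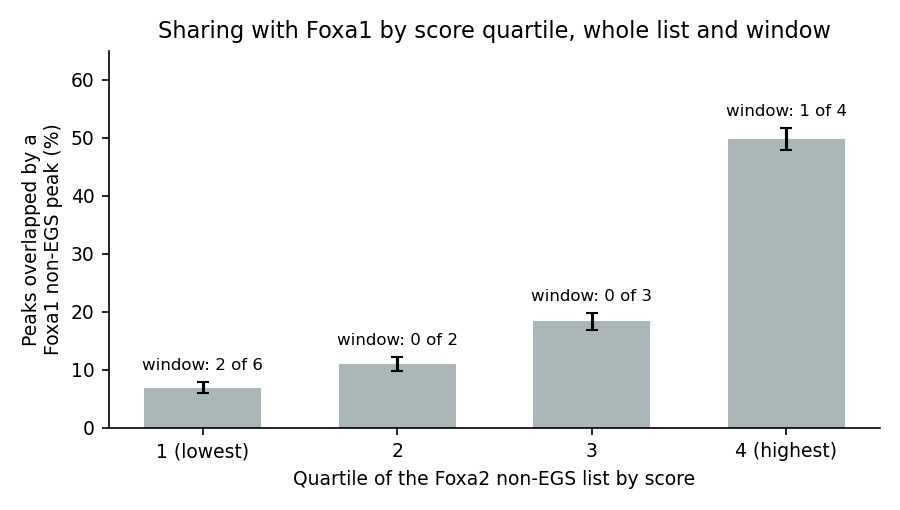
Share of Foxa2 non-EGS peaks overlapped by a Foxa1 non-EGS peak (percent), by quartile of the Foxa2 list by score. Bars are the whole list with 95% exact binomial intervals, and the text above each bar gives the count in the Foxp1 window. The share rises from 6.94% to 49.8% over the list, while the window has 2 of 6 in the lowest and 1 of 4 in the highest quartile.

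The Foxa2 EGS libraries of line 4a2 returned 2 of the Foxa2 places. Replicate 1 has a peak of 122 bp from 99.110048 to 99.110169 Mb, and replicate 2 one of 162 bp from 99.110045 to 99.110206 Mb. Both lie within the first peak of the run, and their centres are 17 bp apart. The same place ranked high in replicate 1 (percentile 82.0) and low in replicate 2 (percentile 20.3). Replicate 1 also has a peak of 186 bp from 99.031238 to 99.031423 Mb, at percentile 86.9, within the Foxa2 non-EGS peak there. It has no counterpart in replicate 2. All 3 EGS peaks thus lie within non-EGS peaks, where 87.6% of the list of replicate 1 and 82.7% of that of replicate 2 overlap one. Of the 15 Foxa2 non-EGS peaks, 2 overlap a peak of replicate 1 (7.22% over the whole list) and 1 overlaps a peak of replicate 2 (7.40% over the whole list). The third peak of the run, at percentile 89.1, is in neither EGS list. In the highest quartile of the Foxa2 non-EGS list, 19.3% of peaks overlap replicate 1 and 18.4% replicate 2, so most peaks of that rank are missing from the EGS lists too.

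Both Flag peaks of line 4a3 lay on the shared Foxa1 and Foxa2 places. One, of 171 bp, lies from 98.971107 to 98.971277 Mb at percentile 26.0 of its list. The other, of 314 bp, lies from 99.123772 to 99.124085 Mb at percentile 82.4. Both overlap a Foxa1 non-EGS peak, as 31.6% of the 883 Flag peaks do, and a Foxa2 non-EGS peak, as 54.4% do. The share of Flag peaks on places that hold both was not computed. Neither overlaps a Foxa3 non-EGS peak, which 22.0% of the Flag list does. Only 2 peaks are too few to set against these shares of the Flag list. The Flag and the Foxa3 library come from the same line, but the Flag library is EGS and this Foxa3 library is non-EGS. From the other side, 2 of the 3 Foxa1 peaks hold a Flag peak (8.02% over the whole list), and 2 of the 15 Foxa2 non-EGS peaks do (4.15% over the whole list). At both places the Foxa2 peak is in the lowest quartile of its list by score. There 2 of the 6 window peaks hold a Flag peak, against 1.12% of the quartile over the list. Again, 2 peaks are too few to set against these shares. The centres of Flag and Foxa2 peaks are 32.5 and 18 bp apart. The Flag list of line 4a2 has no peak in the window, but it holds 21 peaks in all.

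The Foxa3 peaks of the window overlapped no peak of another list, and most of the whole Foxa3 list overlaps no Foxa2 non-EGS peak either. The Foxa3 non-EGS list of line 4a3 has 6 peaks in the window, 0.139% of its 4317 peaks (95% exact interval 0.0510 to 0.302%) and 6.65 times its mean of 0.902 per window. As many or more are found in 3.63% of windows. One peak, of 270 bp, starts at 98.977983 Mb and lies at percentile 64.6. The other 5 form a tight run of their own from 99.044434 to 99.046380 Mb, 1.95 kb in all. They are 263, 322, 370, 202 and 181 bp wide, with gaps of 52, 425, 65 and 67 bp, and lie at percentiles 52.8, 52.5, 18.3, 56.2 and 29.8. The 5 are thus nearly continuous and of middle to low rank.

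None of the 6 Foxa3 peaks overlaps a Foxa2 non-EGS peak, which 14.8% of the Foxa3 list does, or a Foxa1 non-EGS peak, which 5.21% does. With 6 peaks, 5 of them side by side, these zeros are not set apart from the list. Conversely, 0 of the 15 Foxa2 non-EGS peaks overlap a Foxa3 non-EGS peak, against 5.19% over the list. At that share 0 of 15 is not set apart from the list either. The nearest Foxa2 non-EGS peaks are 6.59 kb from the single Foxa3 peak and 12.8 kb from the tight run, and no Foxa3 peak falls in the interval of the 6-peak run.

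Tight runs of this kind are common in the Foxa3 list. Joining Foxa3 non-EGS peaks within 1 kb gave 94 runs of at least 5 peaks, which hold 15.1% of the list, and the largest holds 21 peaks. The same rule gave 0 such runs in the Foxa1 and 0 in the Foxa2 non-EGS list. Peak widths differ between these lists, with a narrowest peak of 127 bp for Foxa3, 317 bp for Foxa1 and 320 bp for Foxa2, and the part of this difference in the counts was not tested. None of the 6 Foxa3 peaks overlaps a peak of the Foxa3 EGS libraries. Over the whole Foxa3 non-EGS list 12.6% of peaks overlap replicate 1 and 0.579% overlap replicate 3, which has 46 peaks.

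The 8 lists without a peak in the window are both Foxa1 EGS and both Foxa3 EGS lists of iHep cells, the Flag list of line 4a2 and all 3 hepatocyte lists. Most windows are empty in each of them. In the Foxa1 EGS lists 84.7% and 91.7% of windows hold no peak, in the Foxa3 EGS lists 86.7% and 99.7%, and in the hepatocyte lists 98.6% (Foxa1), 96.8% (Foxa2) and 93.3% (Foxa3). In the EGS lists that do hold a peak here, 83.9% (Foxa2 replicate 1), 83.0% (Foxa2 replicate 2) and 85.7% (Flag of line 4a3) of windows are empty. The longest lists, those of the non-EGS libraries, all hold a peak here. Among the EGS lists, Foxa3 EGS replicate 1, with 1246 peaks and none here, is longer than all 3 that hold one. The part of list length in this was not tested. For the 940 peaks of Foxa1 EGS replicate 1, 0 in the window allows up to 0.392% of the list by the 95% exact interval, which is above the 0.0874% of the Foxa1 non-EGS list. For the 1246 peaks of Foxa3 EGS replicate 1 the limit is 0.296%, and for the 1091 hepatocyte Foxa3 peaks it is 0.338%. The hepatocyte lists of Foxa1 (166 peaks) and Foxa2 (244 peaks) are shorter still, and the Foxa1 list allows up to 2.20%. These limits lie above the 0.131% of the Foxa2 non-EGS list. That list chose the window, so its share is no level to expect in other lists, and the zeros are no result.

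Among the 9 windows with 15 or more Foxa2 non-EGS peaks, the number of Foxa1 non-EGS peaks runs from 0 to 8 with a median of 3, the number of the Foxp1 window. All 9, the Foxp1 window included, hold a Foxa3 non-EGS peak, against 29.7% of all windows, and 5 of them, again with this one, hold 6 or more. A hepatocyte peak is found in 5 of the 9, not in the Foxp1 window, and in 9.94% of all windows. The 3 windows most like this one over the 14 lists, by the sum of absolute differences in log2(peaks + 1), lie on chromosome 1 (165.950000 to 166.500000 Mb, sum 3.19), chromosome 8 (46.600000 to 47.150000 Mb, 3.32) and chromosome 11 (88.400000 to 88.950000 Mb, 3.39). The first holds 14 Foxa2, 3 Foxa1 and 9 Foxa3 non-EGS peaks, and the second 10, 2 and 7. The third holds 7, 1 and 3, and 2 peaks of the Flag list of line 4a3. None of the 3 has a hepatocyte peak, and in none was a gene assigned.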

How the data were processed

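Of 24 samples, 14 have a peak list, and the 10 inputs were left out. The build mm9 and the tools MACS2 (2.1.0), bedtools (2.16.2) and BWA (0.6.2) are named in the submitters' processing notes, without roles or settings. No source used here gives the calling threshold or any use of an input. Each deposited list gives start, end and a score per peak. The score is the authors' value on an unstated scale. Its lowest value is 50 in the Flag list of line 4a3 and just above 5 in the others, so peaks were only ranked by it, each list on its own (mid-rank percentile).

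Starts are written 1-based. The window is chromosome 6, 98850000 to 99400000, and the run 99109879 to 99125472. Sharing means an overlap of at least 1 bp. Shares have exact Clopper-Pearson 95% intervals, too narrow where peaks cluster. Windows of 550 kb end at the highest peak end per chromosome. Interval functions (Python 3.11.15, numpy 2.4.6, pandas 2.3.3, scipy 1.17.1) were tested on simulated peaks. All peaks of the window are accounted for. The peaks of the run and the regions held by 3 or more lists were to be named with full values. Members, lists and rules were chosen with earlier results of these data known. No test was run. The annotation at hand was of GRCm38.p6, so no gene was placed, and Foxp2, Foxp3 and Foxp4 were not analysed here.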

Additional observations from a re-analysis of the deposited data

How the results depend on the processing

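Of 66 alternatives, 52 left their result within 1.5 times the reported count or within its 95% interval. This tally is no measure of stability, since leaving out any of the 8 lists without a window peak could not change a count. It also takes in the fall of the run from 6 to 4 peaks with a joining gap of 5 kb. Counts follow the edges of the window: with 100 kb more on each side it holds 47 peaks and 5 regions shared by the Foxa1 and Foxa2 lines, against 29 and 3. In the top-scoring 50% of each list it holds 17 peaks in 13 regions, 1 of them shared by both lines, 0 of the run's peaks hold a Foxa1 peak, and 98.6% of windows hold fewer Foxa2 non-EGS peaks. Runs of at least 6 peaks number 1 with a joining gap of 5 kb and 24 with 20 kb, against 3. With EGS libraries only, 0 regions are shared by both lines. Leaving out each library in turn gave 14 to 29 peaks, 11 to 21 regions and 0 to 3 shared regions. The lowest values came without the Foxa2 non-EGS library, and the shared regions are also 0 without the Foxa1 non-EGS library. Leaving out libraries that are alone in their group was added after the data were seen. Read depth is unknown, so an absent peak cannot be told from a place below the threshold.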

Other observations

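Within 100 kb after the end of the Foxp1 window, 17 peaks of 7 lists lie close together, starting 67.9 to 73.7 kb beyond it, in 9 merged regions. They are not members, and whether they belong to Foxp1 was not checked. The region from 99.472728 to 99.473284 Mb holds peaks of 5 lists, of all 3 lines: Foxa1 EGS replicate 1, Foxa2 EGS replicate 2, Foxa2 non-EGS, Foxa3 EGS replicate 1 and Foxa3 non-EGS. The other 8 are held by 1 or 2 lists each. No region within the window is held by more than 3 lists or by Foxa2 and Foxa3 together. Before the window, the only peak within 100 kb is a Foxa2 non-EGS peak from 98.815993 to 98.816536 Mb.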
